A study of Mus musculus with 2 samples.

Results

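The genes described here are the potassium channel genes of the mouse, taken as all protein-coding genes of the GENCODE M21 annotation whose symbol begins with Kcn. There were 94 such genes among 21938 protein-coding genes, and 5 further Kcn-named records of other gene types were left out. They fall into the calcium-activated Kcnm genes (5), the inward rectifiers Kcnj (15), the pore genes Kcnk with a pair of pore domains (14), Kcnq (5), the voltage-gated pore genes Kcna to Kcnh (30), the silent subunits Kcns and Kcnv (5), the auxiliary subunits Kcnab, Kcne and Kcnip (12), Kcnn (4), and Kcnt, Kcnu and Kcnrg (4). DNase-seq, which finds stretches of chromatin that the enzyme DNase I can cut, was run on nuclei from whole urinary bladder of 2 male mice aged 36 days, 1 library for each animal. The animals were of strain B6CASTF1/J, the F1 cross of C57BL/6J with CAST/EiJ, and carried no treatment or engineered allele in their labels. Reads of the CAST/EiJ genome were therefore placed on the C57BL/6J reference mm10. There was 1 group and no second condition, so no test between groups could be made, and Kcn values are set beside those of all protein-coding genes as descriptions, with the value of each library given. The shorter peak lists used here hold 38674 peaks in replicate 1 and 47661 in replicate 2. The read depth is unknown, since no file gives it.

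Potassium channels let potassium leave or enter the cell and so set the resting potential and end electrical excitation. In the bladder wall, the large-conductance calcium-activated channel (pore gene Kcnma1), the small-conductance Kcnn channels, the ATP-sensitive channels built from Kcnj8 or Kcnj11, and Kcnq channels are known to restrain contraction of the smooth muscle. Many other Kcn genes are best known from neurons, heart, kidney or secreting epithelia, and a tissue such as this one mixes muscle, urothelium, connective tissue, vessels and nerves. A weak site could come from few cells or from low accessibility in many cells, and these cannot be told apart in whole tissue.

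The start regions of 3 members show what an open channel promoter held in this tissue. They are the strongest start peaks of the Kcnk and Kcnj genes and the highest start peak of the small-conductance Kcnn genes, with exonic bases left out. Each is printed from the mm10 sequence, 5′ to 3′ on the strand of its gene, and capitals mark bases inside footprints of both libraries, short stretches protected from the enzyme.
Kcnk5, chr14:20181810-20181980, minus strand: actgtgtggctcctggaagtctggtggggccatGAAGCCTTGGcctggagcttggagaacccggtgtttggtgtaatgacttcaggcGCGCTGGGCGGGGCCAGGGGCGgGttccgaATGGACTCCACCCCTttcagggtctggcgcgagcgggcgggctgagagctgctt
Kcnj2, chr11:111065961-111066163, plus strand: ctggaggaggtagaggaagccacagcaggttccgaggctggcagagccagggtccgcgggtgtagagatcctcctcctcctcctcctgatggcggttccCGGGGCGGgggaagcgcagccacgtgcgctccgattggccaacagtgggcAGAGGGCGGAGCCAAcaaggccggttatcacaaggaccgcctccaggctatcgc
Kcnn3, chr3:89519941-89520160, plus strand: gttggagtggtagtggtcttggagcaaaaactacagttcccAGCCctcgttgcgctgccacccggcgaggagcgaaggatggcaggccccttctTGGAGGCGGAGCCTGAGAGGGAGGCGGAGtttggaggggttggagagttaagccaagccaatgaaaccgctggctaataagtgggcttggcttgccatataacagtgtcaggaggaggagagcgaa
In Kcnk5 the footprints shared by both libraries covered 48 of 171 bases, in Kcnj2 23 of 203 bases, and in Kcnn3 33 of 220 bases. The start sites of Kcnk5 and Kcnj2 held a GGGCGG match of the SP and KLF factors, while that of Kcnn3 held none.

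Fewer Kcn genes than other genes had an open start. A start peak, a peak within 500 bases of any annotated transcription start of the gene, was present in both libraries for 28 of 94 Kcn genes (29.8%), against 56.3% of all protein-coding genes. In replicate 1 there were 31 such Kcn genes, against 57.8% of all genes, and in replicate 2 there were 37, against 58.6%. The gap in the shares was thus present in each animal. It depended on the peak list, since in the longer, more permissive list deposited for each library 49 Kcn genes (52.1%) had a start peak in both, against 61.4% of all genes.

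Start peaks of Kcn genes were also found in 1 library only more often than those of other genes. Among the 40 Kcn genes with any start peak, 12 (30.0%) had it in exactly 1 library, while 6.49% of all genes with a start peak did (3.9% of all protein-coding genes). Kcnn1, Kcnq1 and Kcnq5 had it in replicate 1. Kcnab1, Kcne1, Kcnk4, Kcnk12, Kcnq3, Kcnt2, Kcnv1, Kcna1 and Kcng3 had it in replicate 2, the library with more peaks (47661 against 38674). For Kcnk12 a peak of replicate 1 overlapped that of replicate 2 (heights of 0.624 and 0.598) but missed the start window. In the longer list, 11 of the 12 had a start peak in both libraries. So did 685 of the 856 protein-coding genes with a start peak in exactly 1 library. Whether the peaks of the 2 libraries in that list lie at the same start of each gene was not tested.

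Where Kcn genes had a start peak, it was usually low. Peak height is given on the deposited scale, whose unit is not stated and whose smallest step differs between libraries. Whether both libraries share a scale is not known. Each gene's strongest start peak was therefore also ranked among all start peaks of its library (percentile 100 is the highest). Over the 28 genes the median percentile was 37.1 in replicate 1 and 36.0 in replicate 2, against 69.3 and 70.6 over all genes with a start peak in both libraries. The corresponding median heights were 1.51 and 1.26, against 3.004 and 2.91. The strongest start peak lay at or above the median rank in both libraries for 6 of the 28 genes and below it in both for 20. Start peaks of these 28 genes also held fewer footprints, with a median of 3 per gene in each library against 5 in each library over all genes with a start peak in both.

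**Figure D1:**
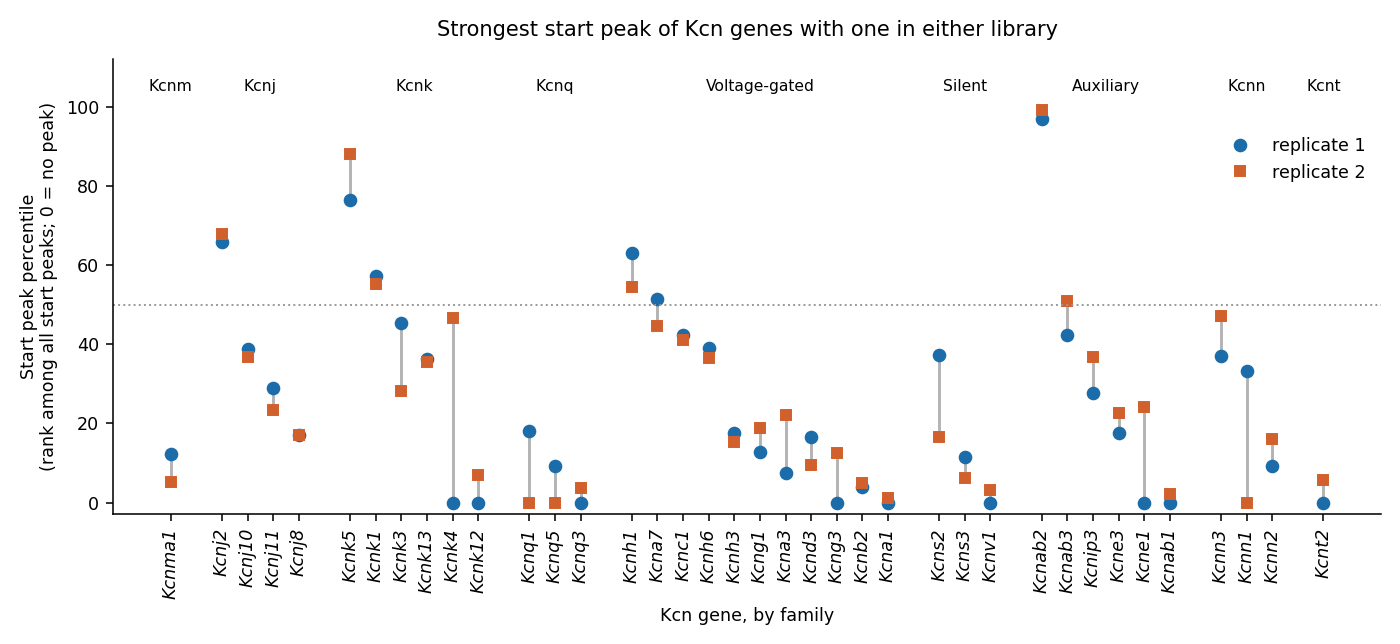
Percentile of the strongest start peak (vertical axis, rank among all start peaks of the library, 0 where there is none) of the Kcn genes reported by name with a start peak in either library, grouped by family, with circles for replicate 1, squares for replicate 2 and a dotted line at percentile 50. Kcnab2, Kcnk5, Kcnj2, Kcnh1 and Kcnk1 lie above the line in both libraries, and 12 genes have 1 library at 0.

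The calcium-activated Kcnm genes, which make the large-conductance channel, were mostly closed at their starts. Only the pore gene Kcnma1 (ENSMUSG00000063142.15, chr14:23289431-24014491, minus strand) had a start peak, with a height of 0.873 in replicate 1 and 0.563 in replicate 2. These are percentiles 12.4 and 5.29, so the peak was among the lowest start peaks of both libraries. It was centred 10.3 kb inside the gene record, within a cluster of 7 annotated starts, from 9.63 to 10.6 kb, that carry 22 of the gene's 38 transcripts. No peak lay at the outermost start, which is used by 1 transcript. A start of the non-coding gene 4930519K11Rik also lies within 500 bases of the start site. In replicate 1 the start peaks held 7 footprints, and in replicate 2 they held 0.

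The 4 accessory genes of this channel had no start peak in either library. They are Kcnmb1, the beta subunit best known from smooth muscle, Kcnmb4, known from neurons, and Kcnmb2 and Kcnmb3. Kcnmb4 (chr10:116417861-116473878, minus strand) had a start peak in the longer list of both libraries, with heights of 0.510 and 0.473, whereas Kcnmb1 (chr11:33963013-33973641, plus strand) had none in either list. The per-site false discovery rate that the authors list up to 0.05 reached 0.00575 in replicate 1 and 0.00103 in replicate 2 at the Kcnmb4 starts. At the Kcnmb1 starts no stretch was listed in either library.

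These starts also differ in sequence, shown here because the first is rich in CpG and the second poor, and neither had a start peak. The 250 bases before each gene record are printed from GRCm38.p6, whose coordinates are those of mm10, on the strand of the gene, with CpG dinucleotides in capitals.
Kcnmb4, chr10:116473879-116474128, minus strand: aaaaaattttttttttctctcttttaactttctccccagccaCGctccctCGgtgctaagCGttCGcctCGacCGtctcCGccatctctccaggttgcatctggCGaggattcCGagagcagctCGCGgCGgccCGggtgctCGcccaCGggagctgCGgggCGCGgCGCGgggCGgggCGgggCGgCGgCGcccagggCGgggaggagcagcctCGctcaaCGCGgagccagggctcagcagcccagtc
Kcnmb1, chr11:33962763-33963012, plus strand: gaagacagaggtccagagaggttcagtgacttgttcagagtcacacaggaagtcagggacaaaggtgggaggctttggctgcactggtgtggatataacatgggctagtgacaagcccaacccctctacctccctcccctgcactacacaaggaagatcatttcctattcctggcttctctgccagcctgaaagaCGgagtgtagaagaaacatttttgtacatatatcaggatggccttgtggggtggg
The Kcnmb4 stretch holds 29 CpG dinucleotides and overlaps exons of the antisense non-coding gene Kcnmb4os2. The Kcnmb1 stretch holds 1 CpG and overlaps no annotated exon. The CpG ratio, the observed number of CpG dinucleotides over the number expected from the base composition within 500 bases of the gene record start, was 1.04 for Kcnmb4 and 0.179 for Kcnmb1.

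Inside Kcnma1, 4 intronic sites away from any annotated start were found in both libraries. The site 6.02 kb from the start of the gene record had heights of 2.04 and 1.69, which was higher than the start peak in both animals. It lies between the outermost start and the cluster of 7 starts, so it is intronic in the gene record but upstream of the starts in that cluster. The site at 129 kb had heights of 0.703 and 0.741. The site at 223 kb had 1.02 and 1.23. The site at 485 kb had 0.964 and 1.37, so the site nearest the start of the record was the highest of the 4 in both libraries. In all, 5 peaks in replicate 1 and 8 in replicate 2 lay away from starts across the 725 kb gene and its flanks, and the peaks found in 1 library only had heights from 0.601 to 1.08.

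**Figure D2:**
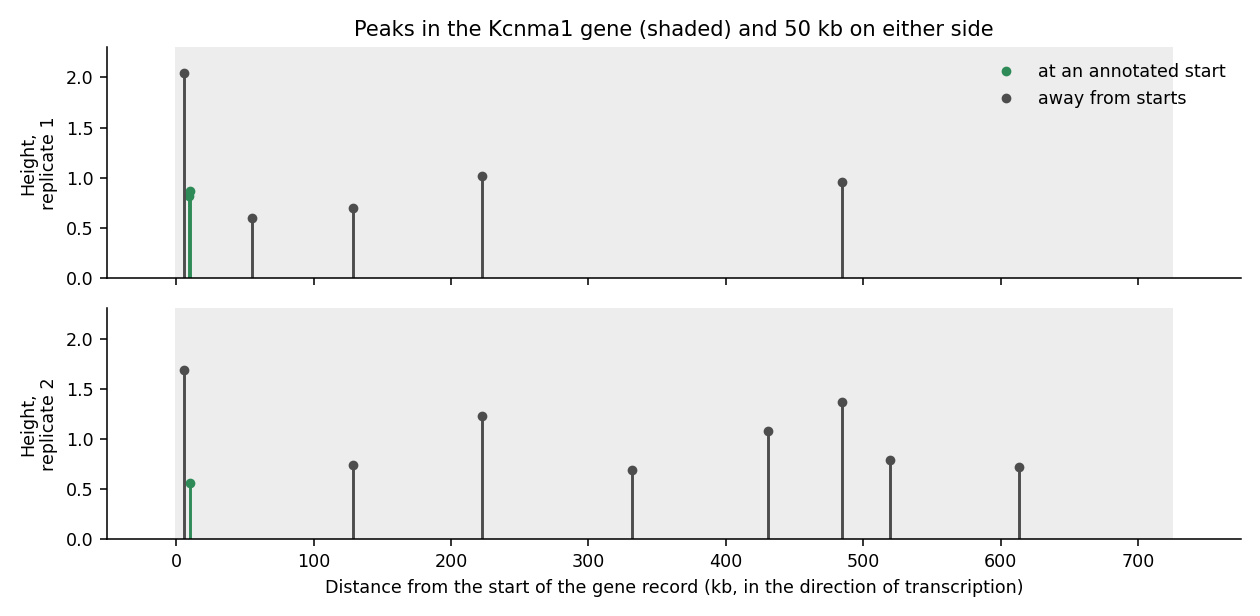
Peak heights (vertical axes, deposited scale) across the Kcnma1 gene (shaded) and 50 kb on either side, by distance in kb from the start of the gene record in the direction of transcription, with replicate 1 above and replicate 2 below. The highest peak in both libraries is the intronic one at 6.02 kb, and the peaks at annotated starts (green) near 10.3 kb are lower.

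The inward rectifiers Kcnj, which pass potassium more easily into the cell than out and hold the resting potential, had a start peak in both libraries for 4 of 15 genes, in the shorter and in the longer list. Kcnj2 (chr11:111066164-111076821), the strong inward rectifier of muscle and many other cells, had heights of 2.79 and 2.71, at percentiles 65.8 and 67.7. Kcnj10, known from glia and transporting epithelia, had 1.56 and 1.28. Its percentiles were 38.7 and 36.7, so both genes held nearly the same rank in the 2 animals.

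The pore genes of the ATP-sensitive channel were open but low. Kcnj11 had heights of 1.28 and 0.938 (percentiles 29.1 and 23.3), and Kcnj8, the vascular and smooth muscle form, had 0.986 and 0.804 (17.1 and 17.0). Their sulfonylurea receptor partners Abcc8 and Abcc9, which complete this channel, had no start peak in either library, and in the longer list Abcc9 had one in 1 library. The other 11 Kcnj genes, among them the G-protein-gated Kcnj3, Kcnj5, Kcnj6 and Kcnj9, had no start peak in either list of either library.

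The Kcnk genes make background channels that stay open at rest and respond to acid, stretch or lipids, and they had a start peak in both libraries for 4 of 14 genes. Kcnk5 (chr14:20140057-20181809, minus strand), an acid-sensitive channel of epithelia, had the second highest start peak of all Kcn genes, with heights of 3.44 and 4.33 at percentiles 76.3 and 88.0. Kcnk1, a weakly rectifying background channel, had 2.34 and 2.03, Kcnk3, another acid-sensitive channel, had 1.81 and 1.04, and Kcnk13 had 1.49 and 1.24. Kcnk3 had percentiles of 45.5 and 28.2, the widest gap between the animals among these 4. The stretch-activated Kcnk2, studied in bladder muscle, had no start peak in the shorter list and heights of 0.590 and 0.491 in the longer one. The longer list gave 7 Kcnk genes with a start peak in each library.

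None of the 5 Kcnq genes, whose channels open near the resting potential, had a start peak in both libraries. In the longer list 4 did (80%), against 61.4% of all genes. Kcnq1, which pairs with Kcne subunits in heart and epithelia, had a height of 1.01 in replicate 1 only. Kcnq5, a smooth muscle and neuronal member, had 0.794 in replicate 1 only, and Kcnq3, a neuronal member, had 0.527 in replicate 2 only. The peaks of Kcnq1, Kcnq5 and Kcnq3 in the shorter list ranked at percentiles 18.1, 9.34 and 3.80 of their libraries, so all 3 were low.

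The Kcna to Kcnh genes, most of whose channels open on depolarisation and repolarise the membrane, had a start peak in both libraries for 11 of 30 genes, and for 15 in the longer list. They include Kcnf1 and the Kcng genes, which are silent subunits by function and of which 0 of 1 and 1 of 4 had it. Kcnb2, a delayed rectifier, had a low start peak, with heights of 0.635 and 0.554 (percentiles 3.86 and 4.90).

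The highest voltage-gated start was that of Kcnh1, an ether-a-go-go channel gene, at 2.63 and 1.98 (percentiles 62.9 and 54.4). Kcna7 had 2.06 and 1.55, and Kcnc1, a fast delayed rectifier, had 1.70 and 1.42. Kcna3, Kcnd3, the silent subunit Kcng1, Kcnh3 and Kcnh6, also open in both libraries, lay between 0.748 and 1.58 in replicate 1 and between 0.652 and 1.27 in replicate 2. Kcna5, a delayed rectifier known from vascular muscle and atrium, had no start peak in any list. Kcnh2, whose channel repolarises the heart, had none in the shorter list and heights of 1.07 and 0.661 in the longer one.

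The auxiliary subunits had a start peak in both libraries for 4 of 12 genes. In the longer list 9 did (75%), against 61.4% of all genes. Kcnab2 (chr4:152390742-152477871, minus strand), the cytoplasmic beta subunit of the Kcna channels, had the highest start peak of all Kcn genes, with heights of 5.76 and 7.11 at percentiles 96.9 and 99.1. A start of Nphp4 also lies within 500 bases of this peak, so the peak cannot be assigned to Kcnab2 alone. Kcnab3 had 1.70 and 1.82. Kcnip3, a calcium-binding partner of Kcnd channels, had 1.25 and 1.28 at a start 39.5 kb inside its gene record, and Kcne3, an epithelial partner of Kcnq1, had 0.998 and 0.920. In the longer list all 4 Kcnip genes showed a start peak in each library, but only Kcnip3 did in the shorter one.

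Of the calcium-activated Kcnn genes, 2 of 4 were open at a start in each library. In the longer list 3 were (75%), against 61.4% of all genes. Kcnn3 (chr3:89520164-89675132), a small-conductance channel studied in bladder muscle, had heights of 1.51 and 1.65 (percentiles 36.9 and 47.1). Kcnn2 had 0.794 and 0.786, at a start 291 kb inside its gene record. Kcnn4, the intermediate-conductance channel of epithelia and blood cells, had no start peak in any list. The silent subunits Kcns and Kcnv, which form channels only together with other voltage-gated pores, had a start peak in both libraries for 2 of 5 genes, Kcns2 (1.52 and 0.795) and Kcns3 (0.850 and 0.580). The 2 values of Kcns3 come from different start sites, of which 1 had heights of 0.850 and 0.509 and the other 0.805 and 0.580. Kcnt, Kcnu and Kcnrg had none in both libraries (0 of 4).

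Over all families, 24 of 77 pore-forming genes and 4 of 17 auxiliary genes and Kcnrg were open at a start in each library. In the shorter list the share of each family was below the 56.3% of all protein-coding genes. In the longer list Kcnq, Kcnn and the Kcnab, Kcne and Kcnip subunits lay above the 61.4% of all genes, and the other families below. In 21 of the 28 genes open in both libraries the strongest start peak was centred within 500 bases of the gene record start in both, and in 7 it lay farther away. The strongest start peak of 7 genes also lay within 500 bases of a start of another gene. Height was greater in replicate 1 for 22 of the 28 genes and the percentile for 16, the smallest steps between heights being 1.27 times larger in replicate 1. The counts of peak position and of the library with the higher value were not made over all genes.

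CpG-rich starts, which are open in most genes, were often without a peak in Kcn genes. The CpG ratio describes only the start of the gene record, whereas peaks at other starts counted too. For 7 of the 28 Kcn genes open in both libraries, the strongest one was centred over 500 bases from the record start. Whether the shares below hold for peaks at the record start alone was not tested. At a CpG ratio of 0.6 or more, each library had a start peak for 16 of 36 Kcn genes (44.4%), against 89.2% of all such genes. The exact Clopper-Pearson 95% interval of the Kcn share is 27.9 to 61.9%. It treats genes as random draws, but these 36 are the complete class, so no conclusion is drawn from the interval. No start peak in either library was found for 16 of the 36 (44.4%), against 7.82% of all genes with such starts. Below 0.6, the share with a start peak in each library was 20.7% for Kcn genes (12 of 58), against 28.2% for all genes of that class. The gap was wider among CpG-rich starts. In the longer list it was smaller among CpG-rich starts, with 66.7% of Kcn genes against 93.2%. Below 0.6 its direction turned in that list, with 25 of 58 Kcn genes (43.1%) against 34.3%. Kcn genes with no start peak had a median CpG ratio of 0.414 and a GC content of 57.3%, against 0.196 and 46.7% for all genes with no start peak. For genes with a start peak in both, the medians of the CpG ratio were 0.654 and 0.730.

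The 16 CpG-rich Kcn genes with no start peak in either library included Kcnj4, Kcnj6 and Kcnj12 among the inward rectifiers, Kcnk2, Kcnk6, Kcnk9 and Kcnk15 among the background channels, Kcnmb4, Kcnt1, and the voltage-gated Kcnc4, Kcnd2, Kcnh2, Kcnh4, Kcnh7 and Kcnh8. They were listed after their values were seen. Some signal was present at part of the closed starts. Of the 54 Kcn genes with no start peak, 16 (29.6%) had a stretch listed in the per-site file at a start in replicate 1, against 10.1% of all genes with no start peak, and 21 (38.9%) did in replicate 2, against 11.3%. In the longer list 10 of the 54 had a start peak in both libraries, against 4.97% of all such genes, 8 had it in 1 library and 36 in none.

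**Figure D3:**
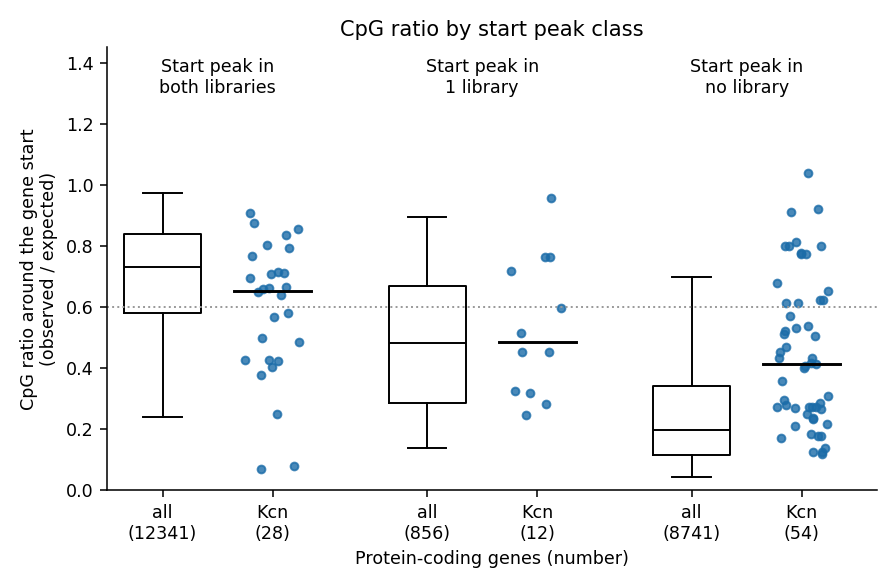
CpG ratio around the start of the gene record (vertical axis, observed over expected), by presence of a start peak in both libraries, in 1 and in none. Peaks at other starts of a gene count as well. All protein-coding genes are boxes (median, quartiles, whiskers at percentiles 5 and 95), and Kcn genes are points with a bar at their median. In the class with no start peak the Kcn median of 0.414 lies above that of all genes, 0.196, and the dotted line marks 0.6.

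Away from starts, Kcn genes were not short of open sites. A shared site, where peaks of both libraries overlapped and which touched no start window of any gene, lay in the gene body or within 50 kb of it for 74 of 94 Kcn genes (78.7%), against 64.3% of all protein-coding genes. The median was 2 sites per Kcn gene against 1 over all genes, but both medians were 1 with a start window of 1000 bases or an overlap of at least 50%, and both were 0 with the highest 50% of peaks. For the peaks of replicate 2 alone, shared or not, both medians were 2. Kcn genes are longer, with a median of 30.8 kb against 17.4 kb, and per 100 kb of searched sequence the medians were 1.12 and 0.845. The part of gene density, or of other features of these regions, in this difference was not tested.

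By family the median number of shared sites was 3 for the auxiliary subunits, 2.5 for Kcnk, 2 for Kcnj, Kcnq and Kcnn, 1 for Kcnm, the voltage-gated and the silent subunits, and 0.5 for Kcnt, Kcnu and Kcnrg. Gene length differs between families, with medians of 300.3 kb for Kcnq and 26.7 kb for Kcnj, and the order changed per 100 kb. There the medians were 1.99 for the auxiliary subunits, 1.95 for Kcnk, 1.54 for Kcnj, 1.25 for Kcnn, 0.943 for the silent and 0.809 for the voltage-gated subunits. Kcnq, with 0.656, Kcnm, with 0.485, and Kcnt, Kcnu and Kcnrg, with 0.324, were below the 0.845 of all genes, as were the voltage-gated genes. Kcnq1 had the most, 9 sites, of which 5 lay in its introns. The highest of these were at 47.7 kb (heights 2.63 and 2.29) and 208 kb (2.37 and 2.11) from its start. Kcnip1, a calcium-binding partner of Kcnd channels, had 7, and Kcnj10 and Kcnn1 had 6 each. Among these genes Kcnj10 had a start peak in both libraries, Kcnq1 and Kcnn1 had one in replicate 1, and Kcnip1 had none. In the longer list Kcnq1, Kcnn1 and Kcnip1 had one in both.

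Kcnn1, a small-conductance channel of neurons, stood out for the height of the sites in its window, although it was chosen for this remark after its values were seen. These sites are placed with Kcnn1 by position alone and may belong to other genes. The site 2.46 kb upstream of its gene record had heights of 5.08 and 6.05 and held 10 footprints in each library. The site 22.0 kb downstream of the record start, in the 3′ flank, had 4.69 and 3.54. Its own strongest start peak, 6.20 kb inside the gene record, had a height of 1.39 in replicate 1 and was missing from the shorter list of replicate 2, where the longer list gives 1.00.

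**Figure D4:**
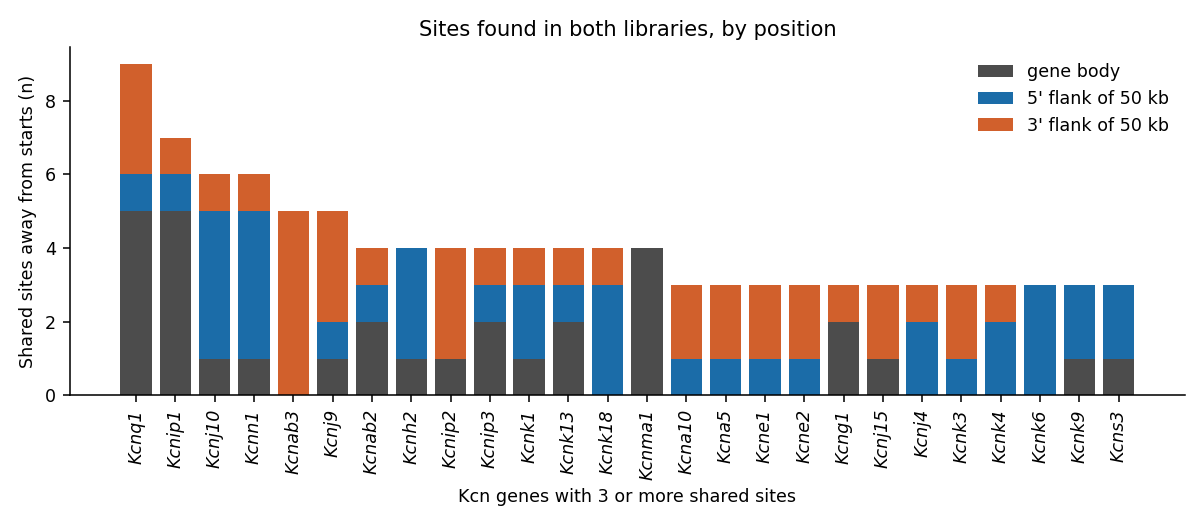
Number of shared sites away from starts (vertical axis) for the Kcn genes reported by name with 3 or more, stacked by position in the gene body, the 5′ flank and the 3′ flank of 50 kb. Kcnq1 has 9 and Kcnip1 has 7, mostly in the gene body, and all 4 sites of Kcnma1 lie in the gene body.

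The 74 genes were served by 170 distinct sites, of which 12 lay in the windows of at least 2 Kcn genes. Kcnj9 and Kcnj10, which are 11.9 kb apart on chromosome 1, and Kcnip1 and Kcnmb1, which overlap on chromosome 11, are such neighbours. Of the 182 pairs of a gene and a site, 41 lay in introns, 5 over an exon, 67 in the 5′ flank and 69 in the 3′ flank. The start of a Kcn gene was the nearest protein-coding start for 82 sites (48.2%), and 39 (22.9%) lay in the body of another protein-coding gene, so position alone assigns fewer than all of them to a Kcn gene. Median heights were 1.42 and 1.25, near those of all 15562 shared sites away from starts, 1.29 and 1.23. A footprint in both libraries was held by 159 of the 170, and the same share was not counted over all 15562.

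Of 12 motifs searched on both strands in these sites, the CTCF motif was the most frequent. It was found in 52 of 170 sites (30.6%), against 19.1% of all shared sites away from starts. In 51 of the 52 it overlapped a footprint in each library by at least 1 base. The share of matches in footprints was not counted over all shared sites. By family the CTCF share was highest around the auxiliary subunits, with 15 of 32 sites (46.9%). The share in introns or exons of Kcn genes was 26.7%, and in their flanks 32.0%. The AP-1 motif TGANTCA was found in 13 sites (7.65%), against 13.6%, and overlapped footprints of both libraries in 2. The CArG box, the motif of serum response factor at muscle genes, was found in 1 site (0.588%), against 1.07%. Sites of Kcn genes had the same median width as all, 200 bases. A motif match describes the letters of a site and shows no binding.

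**Figure D5:**
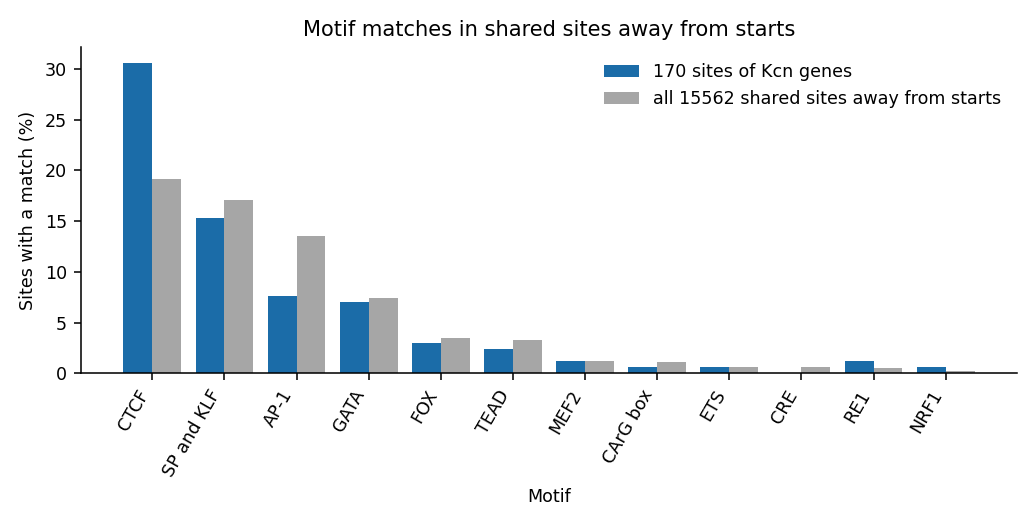
Percent of sites away from starts that hold each motif (vertical axis), for the 170 sites of Kcn genes and for all 15562 shared sites. CTCF is the most frequent motif, at 30.6% of the Kcn sites and 19.1% of all, and AP-1 is at 7.65% and 13.6%.

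The remaining motifs were found in similar shares of both sets away from starts, for example GGGCGG of SP and KLF factors in 15.3% and 17.0%, AGATAA of GATA factors in 7.06% and 7.42%, TGTTTAC of FOX factors in 2.94% and 3.44%, and ACATTCC of TEAD factors in 2.35% and 3.26%. TGACGTCA (CRE), CCGGAAGT (ETS) and the NRF1 and MEF2 motifs were each found in at most 2 Kcn sites. Motifs were searched independently, so matches may overlap. At the 33 start sites of Kcn genes GGGCGG was found in 24 (72.7%), against 69.9% of all 16050 shared start sites, although Kcn start sites were narrower, with a median of 240 against 300 bases. CTCF was found in 3 of them (9.09%), against 3.64%. AP-1 and ETS, in 5.62% and 7.31% of all start sites, were found in none.

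The sites below are shown because they carry a match of RE1, the element of the repressor REST that is known from neuronal genes, or a match inside Kcnma1 or next to Kcnn3. RE1 was found in 2 of 170 sites away from starts (1.18%), against 0.540% of all, near Kcnh2 and Kcnk9. Each is printed from mm10, 5′ to 3′ on the strand of its gene, with the motif match in capitals.
Kcnh2, RE1, 6.05 kb upstream, chr5:24357561-24357752, minus strand: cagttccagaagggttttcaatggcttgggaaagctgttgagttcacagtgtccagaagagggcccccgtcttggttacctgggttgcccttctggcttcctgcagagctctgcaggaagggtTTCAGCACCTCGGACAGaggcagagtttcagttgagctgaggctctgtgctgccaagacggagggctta
Kcnma1, AP-1, intron at 129 kb, chr14:23885646-23885860, minus strand: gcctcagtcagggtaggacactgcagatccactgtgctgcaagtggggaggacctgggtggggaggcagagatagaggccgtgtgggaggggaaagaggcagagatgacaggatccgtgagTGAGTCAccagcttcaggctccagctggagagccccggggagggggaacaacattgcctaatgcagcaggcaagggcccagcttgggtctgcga
Kcnma1, AP-1, intron at 6.02 kb, chr14:24008381-24008560, minus strand: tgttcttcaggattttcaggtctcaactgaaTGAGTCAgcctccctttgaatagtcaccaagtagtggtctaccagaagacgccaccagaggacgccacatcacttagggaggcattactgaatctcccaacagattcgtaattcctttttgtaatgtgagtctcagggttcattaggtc
Kcnma1, CTCF, intron at 223 kb, chr14:23791501-23791700, minus strand: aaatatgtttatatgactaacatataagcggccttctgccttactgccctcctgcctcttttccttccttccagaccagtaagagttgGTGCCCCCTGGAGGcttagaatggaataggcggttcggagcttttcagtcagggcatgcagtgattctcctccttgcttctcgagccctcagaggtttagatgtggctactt
Kcnn3, AP-1, 3′ flank at 169 kb, chr3:89688761-89688960, plus strand: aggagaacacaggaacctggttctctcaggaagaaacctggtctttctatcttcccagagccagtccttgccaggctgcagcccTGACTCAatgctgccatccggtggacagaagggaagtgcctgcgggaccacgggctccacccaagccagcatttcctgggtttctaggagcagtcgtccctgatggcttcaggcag
The RE1 match near Kcnh2 had 16 of its 17 bases in footprints of both libraries. The CTCF match in Kcnma1 had all 14 bases in such footprints. The AP-1 match at 129 kb in Kcnma1 had 4 of 7 bases and that near Kcnn3 had 7 of 7, while the AP-1 match at 6.02 kb, in the highest Kcnma1 site, had 0. The Kcnn3 site had heights of 2.31 and 2.67, above those of its start peak in both libraries.

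Kcn channels work with the products of other genes, and 20 such partner genes, not all of them channel genes, were counted in the same way. A start peak in both libraries was present for 7 of them, in 1 library for 3 and in neither for 10. Of all protein-coding genes, 56.3% had one in both libraries and 3.9% in exactly 1. In the longer list 10 of the 20 partners had one in both libraries, against 61.4% of all genes. Itpr1, a calcium release channel of internal stores, had heights of 4.04 and 4.56, and Trpm4, a calcium-activated cation channel, had 3.20 and 3.62. Cacna1g, a low-voltage-activated calcium channel gene, had 2.06 and 2.24, and Cacnb3, a calcium channel beta subunit, had 1.88 and 1.86. The other partners with a start peak in both libraries were lower, between 0.941 and 1.07 in replicate 1 and between 0.616 and 0.821 in replicate 2. The ryanodine receptors Ryr2 and Ryr3, which supply the calcium sparks that activate the large-conductance channel, had no start peak in the shorter list of either library. In the longer list each of them had one in 1 library.

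The tissue label was checked against marker genes. Start peaks in both libraries were present for 6 of 8 urothelium genes (the other two in 1 library), with Upk2 at 1.67 and 1.93, and for 3 of 8 smooth muscle genes, with Smtn at 2.47 and 3.06, while Actg2, Cnn1, Acta2, Des and Tagln had none. In the longer list Acta2 and Des had one in both libraries and Tagln in 1, which made 5 of 8. In the shorter list they were also present for 2 of 4 fibroblast genes, 1 of 4 endothelial, 1 of 6 neuronal, 1 of 4 glial, 0 of 3 myeloid and 0 of 3 cardiomyocyte genes. Of all protein-coding genes, 56.3% had one in both libraries, and only the urothelium share lay above this. In the longer list the counts were 8 urothelium, 3 fibroblast, 1 endothelial, 2 neuronal, 1 glial, 0 myeloid and 0 cardiomyocyte genes, against 61.4% of all genes. Actg2 and Cnn1, known from smooth muscle, had no start peak in either list. No RNA was measured in these samples, so none of the values above is a level of expression.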

How the data were processed

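DNase-seq was analysed for 2 libraries, from 2 animals by their labels. Per the deposited text, the authors made each list separately for each library from filtered alignments to mm10 and a mappability reference, without pooling. For the aligner and callers, names and versions were not given in the sources used here. Heights of peaks are deposited as signal by the authors, with no scale stated. Their smallest step is 0.0113 (replicate 1) or 0.00893 (replicate 2). Of the heights below 1, 100% lie within 0.05 steps of a whole number of steps. Whether heights of the 2 libraries are on 1 scale is not known. The authors also deposited an FDR, that is an adjusted p-value, per stretch of bases, up to 0.05. Each deposited footprint carries the value 0.01, and whether it is a p-value or an FDR is not stated.

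Of the 2 peak lists of each library, the one with fewer peaks was used, with the longer one as an alternative. Peaks were placed on GENCODE M21 genes and the GRCm38.p6 sequence. Start windows reached 500 bases to each side of the 132666 annotated starts, and an overlap of 1 base or more made peaks of the 2 libraries a shared site. Percentiles are ranks among the 19588 and 20332 start peaks of the libraries. Sequences printed here come from that genome. In the table of RefSeq promoters 69 of the 94 genes were matched, and none is printed from it. Counting scripts were tested on simulated data. Python 3.11.15, pandas 2.3.3, numpy 2.4.6, scipy 1.17.1, matplotlib 3.10.9, pysam 0.24.0 and samtools 1.23.1 were used.

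The named genes were every Kcnm gene, up to 4 genes per family with the highest mean start percentile, the 10 genes with the most shared sites, a set of 18 genes studied in bladder and smooth muscle, and partner genes. Other genes are named to complete a count. The members, lists, motifs and printed sequences were chosen with earlier results of these data known. Genes are not replicates, so no p-value was computed. Some genes and 1 sequence are not reported here.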

Additional observations from a re-analysis of the deposited data

How the results depend on the processing

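Each count was recomputed under other peak lists, windows, overlaps and flanks, and in each library alone. With a replicate left out, a start peak or site needed a peak in the other library only, so nothing had to be shared. The share of Kcn genes with a start peak stayed below that of all genes in each of these settings, at 0.313 to 0.850 of it. The number with a start peak in both libraries was 28 as reported, 14 with the highest 50% of peaks and 49 with the longer list. In 1 library alone it was 31 to 37. By family, the highest 50% of peaks gave 2 Kcnj, 0 Kcnm and 6 voltage-gated genes. The longer list gave 7 Kcnk, 2 Kcnm and 4 Kcnq genes, and the start of the gene record alone gave 0 Kcnm genes. Without one or the other replicate, 1 to 2 Kcnq genes had a start peak. Genes with a shared site away from starts numbered 74 as reported (78.7%, against 64.3% of all genes), 47 with 10 kb flanks (50% against 37.5%), 46 with the highest 50% of peaks (48.9% against 40.7%), and 77 to 82 with a replicate left out (81.9 to 87.2% against 68.1 to 75.4%). The median number of these sites was 2 (1 over all genes), and became 0.5 with 10 kb flanks (0), 2.5 with 100 kb flanks (2), 0 with the highest 50% of peaks (0), 3 with the longer list (2), 1 with an overlap of at least 50% (1) and 1 with a start window of 1000 bases (1). It stayed 2 with either replicate left out, against 2 over all genes without replicate 1 and 1 without replicate 2. The share of CpG-rich Kcn genes with a start peak in both libraries was 66.7% in the longer list against 93.2%. In 1 library alone the share was 47.2 to 52.8%, against 90.6 to 90.7% of all such genes. With thresholds of 0.5 and 0.75, which like the other settings for this share were chosen after seeing the data, the share in both libraries was 39.1% against 86.6% of all genes and 35.0% against 92.6%. The cause of these shifts was not tested. Low peaks limit the precision, because absolute depth is unknown. No paired analysis was possible because there is 1 group and no second condition.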
